A study of Mus musculus with 10 samples.

Results

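The miR-106b~25 cluster was described through its 6 array probes, the guide strands mmu-miR-106b, mmu-miR-93 and mmu-miR-25 and the minor strands mmu-miR-106b*, mmu-miR-93* and mmu-miR-25*, named below without the species prefix. The probes were found by exact name among 1040 probes with mouse miRNA names, and all 6 were on every array. RNA came from mIMCD-3, a mouse inner medullary collecting duct cell line, grown to confluence in transwells and kept without hormone for a day before treatment. Total RNA was labelled with Hy5 and read on single-colour miRNA arrays, and their number limits the precision. There were 5 samples treated with 100 nM aldosterone, the mineralocorticoid hormone, and 5 treated with ethanol as vehicle. How long the cells were treated was not stated in the labels. Sample titles shared 5 starting codes between the groups, which were numbered as replicates 1 to 5. Nothing stated that samples were separate cultures, so the spread behind each p-value may be technical.

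MicroRNAs are cut from a hairpin whose arms both yield a short RNA. The strand kept in Argonaute is the guide, and its bases 2 to 8, the seed, pair with target mRNAs. The other arm leaves the minor strand, which is mostly degraded. The 3 hairpins of this cluster are transcribed together from within an intron of Mcm7, which encodes a subunit of the replicative MCM helicase, and E2F factors drive the host gene in proliferating cells. In human cells miR-106b and miR-93 repress the cell-cycle inhibitor CDKN1A and miR-25 represses the apoptosis factor BCL2L11.

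The hairpins are shown because a single transcript yields all 6 strands. RefSeq (GRCm38.p6) places Mir106b at chr5:138165737-138165818, Mir93 at chr5:138165523-138165610 and Mir25 at chr5:138165321-138165404, all on the minus strand. All 3 lie inside the annotated range of Mcm7 and on its strand, and together span 498 bases. The array files themselves name no genome build. Capitals mark the guide strand, which sits in the 5p arm of Mir106b and Mir93 and in the 3p arm of Mir25.
Mir106b: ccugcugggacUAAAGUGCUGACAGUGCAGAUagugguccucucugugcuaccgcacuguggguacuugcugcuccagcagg
Mir93: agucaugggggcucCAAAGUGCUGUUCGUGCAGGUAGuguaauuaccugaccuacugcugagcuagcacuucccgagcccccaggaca
Mir25: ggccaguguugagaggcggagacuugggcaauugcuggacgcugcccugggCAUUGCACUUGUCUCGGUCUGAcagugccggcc

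The mature strands are shown for their seeds, here in capitals. RefSeq held all 6, under arm names (miR-106b-5p and miR-106b-3p, miR-93-5p and miR-93-3p, miR-25-3p and miR-25-5p, guide first).
miR-106b: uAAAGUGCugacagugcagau
miR-93: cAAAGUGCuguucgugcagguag
miR-25: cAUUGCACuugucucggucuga
miR-106b*: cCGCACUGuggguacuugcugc
miR-93*: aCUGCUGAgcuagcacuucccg
miR-25*: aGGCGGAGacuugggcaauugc
miR-106b and miR-93 share the seed AAAGUGC but are 7 edits apart over their whole length. The seed of miR-25 is AUUGCAC. Each minor strand has a seed of its own, which no other mouse miRNA of the RefSeq table carries.

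The guides were far above background and the minor strands close to it on the same arrays. Each probe was spotted 2 times, and the blank spots of an array averaged 17.6 to 21.5 intensity units with an SD of 0.939 to 1.34. Before normalization miR-106b lay 41.6 to 740 blank SDs above the blank mean, with a median of 143 over the 10 arrays. For miR-93 the range was 85.3 to 672 and for miR-25 it was 63.7 to 571. Both spots of each guide passed the authors' detection threshold, the blank mean plus 2 SD, on 10 of 10 arrays.

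Among the minor strands miR-106b* was 6.96 to 24.2 blank SDs above the blank mean and passed with both spots on all 10 arrays. The range was 2.23 to 9.66 for miR-93*, which passed on 8 arrays, and 2.21 to 16.8 for miR-25*, which passed on 9. All 6 probes thus met the detection minimum of 5 arrays and were tested. Probes bind with different efficiency, so these margins state how well each strand was measured and give no ratio of one strand to the other. Duplicate spots, with the blank mean taken off, differed by a median CV of 5.83% to 7.29% for the guides and 14.9% to 22.6% for the minor strands.

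The line was checked against markers. The epithelial miR-200a, miR-200b and miR-429 were detected on all 10 arrays. Their log2 changes with aldosterone, 0.26, 0.11 and 0.11, did not pass. miR-200a was higher in 5 of 5 pairs, and miR-200b differed among replicate numbers (limma adjusted p = 0.0378). Of 4 blood and 3 muscle markers none was detected on all arrays, and the only detection among them was miR-451 on 1 array. The muscle miRNA miR-206, which was not on that list and was added after its values were seen, was detected on all 10, with levels of 9.19 ± 1.69 in the aldosterone group and 10.05 ± 3.07 in the vehicle group (SD, n = 5). The neuron marker miR-124 was detected on 0 arrays and miR-9 on 8, at 5.97 ± 0.91 with aldosterone and 5.25 ± 0.95 with vehicle and higher in 5 of 5 pairs, and the endothelial miR-126-3p on 9, at 9.55 ± 1.42 and 8.13 ± 2.27 (SD, n = 5). The share of all tested probes higher in 5 of 5 pairs was not counted, so the pair counts of miR-200a and miR-9 have no background. The part of these markers in the results below was not tested.

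The question of the design was whether aldosterone changes miRNA levels. No member of the cluster passed the threshold adjusted over all probes. The difference of means, as a percentage of the vehicle mean, was 13.4% for miR-106b, 0.923% for miR-93 and -3.27% for miR-25, and -18.3% to -4.89% for the minor strands. Over the whole array 0 of 430 tested probes (0%) passed at an adjusted p of 0.05 (limma, Benjamini-Hochberg), and 8 (1.86%) had an unadjusted p under 0.05. Levels below are intensities above background after quantile normalization. Changes are differences of log2(intensity + 50), a scale that understates the change of dim probes. In such whole-culture RNA, fewer expressing cells and less RNA per cell cannot be told apart.

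miR-106b stood at 185, 176, 273, 188 and 176 in aldosterone replicates 1 to 5. In vehicle replicates 1 to 5 it stood at 199, 132, 291, 91.1 and 167. Both arrays of replicate 3 were the highest of their group, vehicle replicate 4 was the lowest of all, and the groups overlapped. The means were 199 ± 41.2 with aldosterone and 176 ± 75.7 with vehicle (SD, n = 5). The log2 change was 0.19 (SE 0.22, 95% interval -0.30 to 0.69, limma adjusted p = 0.944). It was positive in 3 of 5 pairs. Taking the replicate number as a block gave an SE of 0.14 and an interval of -0.15 to 0.53 (limma adjusted p = 0.744). The 2 raw spots of vehicle replicate 4 read 91.2 and 37.0, a CV of 83.4% above blank, against at most 10.7% for this probe on any other array. Without that array the log2 change was 0.041, without aldosterone replicate 3 it was 0.098 and without vehicle replicate 3 it was 0.35. With the brighter of the 2 spots taken for every probe it was 0.091, and with the dimmer it was 0.32.

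miR-93 stood at 291, 192, 245, 195 and 199 in aldosterone replicates 1 to 5 and at 273, 218, 245, 188 and 188 in the vehicle replicates. Replicate 1 was the highest in both groups, and replicate 3 gave the same normalized value in both. The means were 224 ± 43.0 and 222 ± 36.9 (SD, n = 5), with a log2 change of 0.0079 (SE 0.12, interval -0.27 to 0.28, limma adjusted p = 0.982). Quantile normalization hands out a fixed ladder of values, so bright probes of equal rank are tied. With the replicate number as a block the interval of miR-93 narrowed to -0.087 to 0.10 (limma adjusted p = 0.939).

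miR-25 stood at 218, 155, 207, 180 and 207 in aldosterone replicates 1 to 5 and at 262, 192, 195, 167 and 185 in the vehicle replicates. The groups overlapped, with replicate 1 again the highest of each. It was lower with aldosterone in replicates 1 and 2 and higher in the other 3. The means were 194 ± 25.8 and 200.1 ± 36.5 (SD, n = 5), and the log2 change was -0.034 (SE 0.11, interval -0.27 to 0.21, limma adjusted p = 0.953). This sign turned without normalization between arrays (0.39), where 96.0% of all tested probes were higher, and under spike control scaling (0.24), where 75.3% were. The replicate block gave miR-25 an SE of 0.070 and an interval of -0.21 to 0.14 (limma adjusted p = 0.889).

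miR-106b*, the minor strand with the best margin, stood at 10.1, 14.5, 13.9, 12.8 and 13.8 in aldosterone replicates 1 to 5. In the vehicle replicates it stood at 14.6, 20.4, 15.6, 14.6 and 14.2. Vehicle replicate 2 was the highest array and aldosterone replicate 1 the lowest, and the groups overlapped between 14.2 and 14.5. It was lower with aldosterone in 5 of 5 pairs, as were 2.33% of all tested probes. The means were 13.02 ± 1.73 and 15.9 ± 2.56 (SD, n = 5) and the log2 change was -0.064 (SE 0.029, interval -0.13 to 0.0028, limma adjusted p = 0.944). With the replicate block its unadjusted p was 0.0286 and its adjusted p 0.744, beside 4.42% of tested probes at an unadjusted p under 0.05. The 2 raw spots of aldosterone replicate 1 read 24.2 and 34.6, a CV of 88.4% above blank. The log2 change was -0.046 without that array and -0.042 without vehicle replicate 2. It was -0.17 with an offset of 10 in place of 50, and -0.42 with blank subtraction and no offset. Without normalization between arrays it was 0.032.

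miR-93* stood at 5.76, 7.90, 7.62, 6.03 and 5.88 in aldosterone replicates 1 to 5 and at 9.41, 7.78, 7.90, 7.15 and 8.36 in the vehicle replicates. Aldosterone replicates 1, 4 and 5 were below every vehicle array, while replicates 2 and 3 lay among them. The means were 6.64 ± 1.03 and 8.12 ± 0.84 (SD, n = 5). Its log2 change of -0.037 (SE 0.016, interval -0.074 to -0.00085) had, without a block, the only unadjusted p under 0.05 among the 6 members, 0.0459, on a side where 0.93% of all tested probes had one. With the replicate block its unadjusted p was 0.0935 and its interval, -0.084 to 0.0088, spanned 0. It did not pass over all probes (limma adjusted p = 0.944) and was lower in 4 of 5 pairs, as were at least 4 pairs for 16.5% of tested probes. On 2 arrays, aldosterone replicate 5 and vehicle replicate 2, only 1 of its spots passed the detection threshold. With an offset of 10 its log2 change was -0.12, and without normalization between arrays it was -0.0010.

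miR-25* stood at 7.05, 6.84, 10.8, 9.89 and 8.44 in aldosterone replicates 1 to 5 and at 7.81, 7.81, 11.1, 7.11 and 11.5 in the vehicle replicates. The groups overlapped throughout, and vehicle replicate 5 and both arrays of replicate 3 were the highest. The means were 8.61 ± 1.74 and 9.05 ± 2.04 (SD, n = 5), with a log2 change of -0.011 (SE 0.029, interval -0.075 to 0.054, limma adjusted p = 0.953). It was lower in 4 of 5 pairs, replicate 4 being the exception, and 16.5% of tested probes were lower in at least 4 pairs. Its SE with the replicate block was 0.022 and its interval -0.066 to 0.045 (limma adjusted p = 0.889). In vehicle replicate 4 only 1 of its spots passed the detection threshold.

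**Figure D1:**
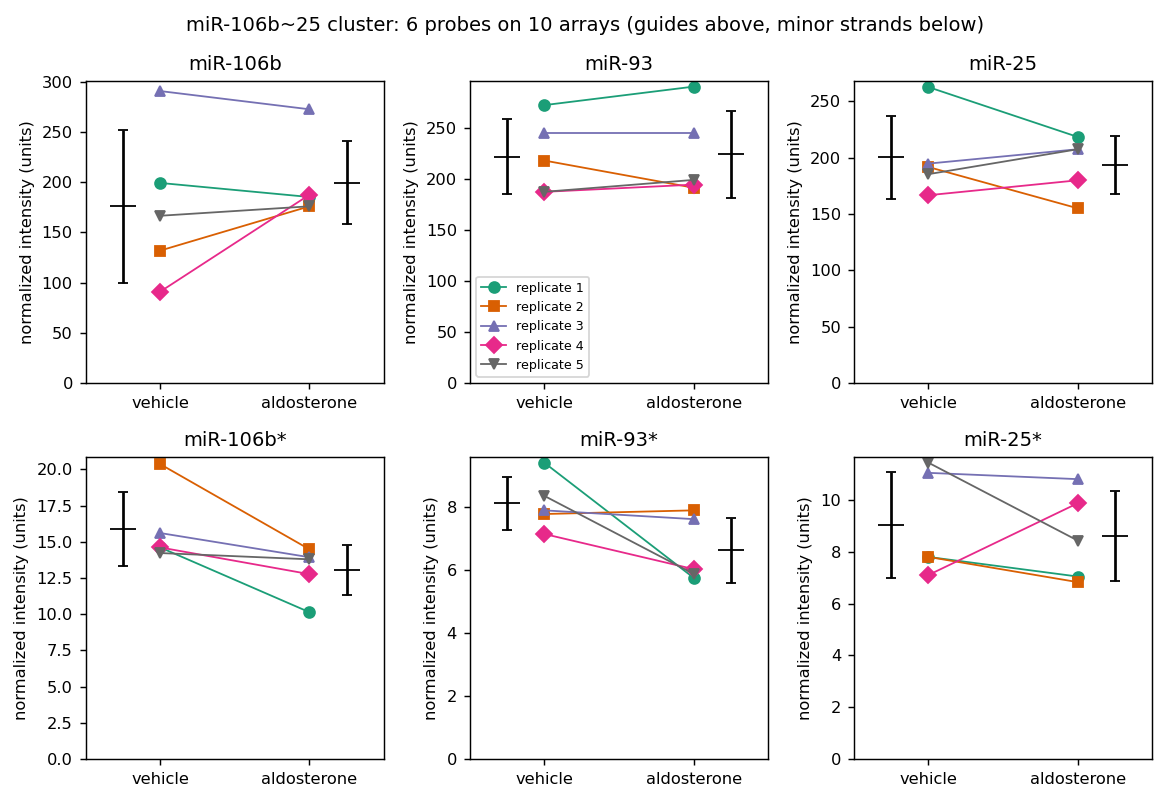
Normalized intensity above background (y axis, units, from 0) of the 6 probes in vehicle and aldosterone samples, with a line joining arrays of the same replicate number and black bars for mean and SD of the 5 arrays. miR-106b* was lower with aldosterone along all 5 lines, a difference that did not pass the test, and the lines of each guide run both ways.

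Guide and minor strands of the same hairpin were then compared through their change with aldosterone. The log2 difference guide minus minor strand was taken on each array and tested over the 61 hairpins with both strands tested. No change in this difference would mean equal change on this compressed scale, not equal fold change. The offset of 50 holds the dim minor strands nearly still, so equal fold changes of both strands would not give 0. The test therefore cannot tell whether the strands changed by the same fold. For miR-106b the difference was 1.97, 1.81, 2.33, 1.92 and 1.82 in aldosterone replicates 1 to 5 and 1.95, 1.37, 2.38, 1.13 and 1.75 in the vehicle replicates. Vehicle replicates 2 and 4 were the low arrays, and the other arrays of both groups overlapped. The means were 1.97 ± 0.21 and 1.71 ± 0.49 (SD, n = 5), which gave a change of 0.26 (SE 0.22, interval -0.24 to 0.75). This did not pass (limma adjusted p = 0.915, exact permutation p = 0.294 over all splits into 5 and 5, two-sided). Taking the replicate number as a block gave an SE of 0.13 and an interval of -0.077 to 0.59 (limma adjusted p = 0.681). Without vehicle replicate 4 the change was 0.12, and without vehicle replicate 3 it was 0.41. It was 0.44 with an offset of 10, 0.72 with blank subtraction and no offset, and 0.68 in the authors' deposited values. It was positive in 4 of 5 pairs, as were at least 4 pairs for 24.6% of the 61 hairpins.

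For miR-93 the strand difference was 2.61, 2.06, 2.35, 2.13 and 2.16 with aldosterone and 2.44, 2.21, 2.35, 2.06 and 2.03 with vehicle, in replicates 1 to 5. Replicate 1 was the highest in both groups. The change of 0.045 (SE 0.12, interval -0.23 to 0.32) did not pass (limma adjusted p = 0.915, exact permutation p = 0.722). It was 0.13 with an offset of 10, 0.47 with blank subtraction and no offset, and 0.63 in the authors' deposited values. None of these passed either. The replicate block gave miR-93 an SE of 0.053 and an interval of -0.085 to 0.18 (limma adjusted p = 0.753). For miR-25 the strand difference was 2.23, 1.85, 2.08, 1.94 and 2.14 with aldosterone and 2.43, 2.06, 2.002, 1.92 and 1.94 with vehicle. Its change was -0.023 (SE 0.11, interval -0.27 to 0.22, limma adjusted p = 0.946, exact permutation p = 0.897). Its SE with the replicate block was 0.071 and its interval -0.20 to 0.15 (limma adjusted p = 0.840). Of the 61 hairpins 0 passed (0%), 0 had an unadjusted p under 0.05 (limma), and 54.1% had a change above 0. With the replicate block 0 passed and 4 (6.56%) had an unadjusted p under 0.05, none of them in this cluster.

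**Figure D2:**
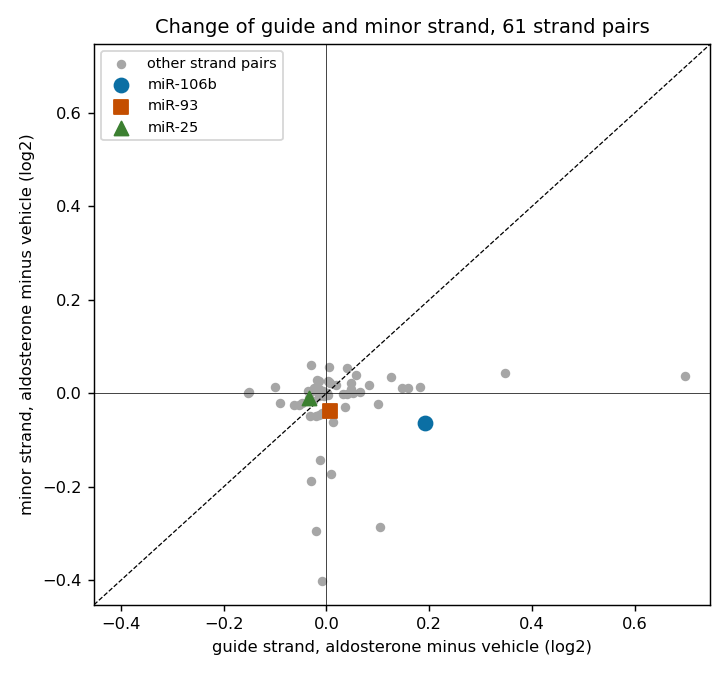
Change with aldosterone, on the log2(intensity + 50) scale, of the guide strand (x axis) and the minor strand (y axis). Shown are 61 hairpins with both strands tested, with a dashed line of equal change on this scale, which is not equal fold change. miR-106b lies below the line at 0.19 and -0.064, while miR-93 and miR-25 lie near the origin.

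**Figure D3:**
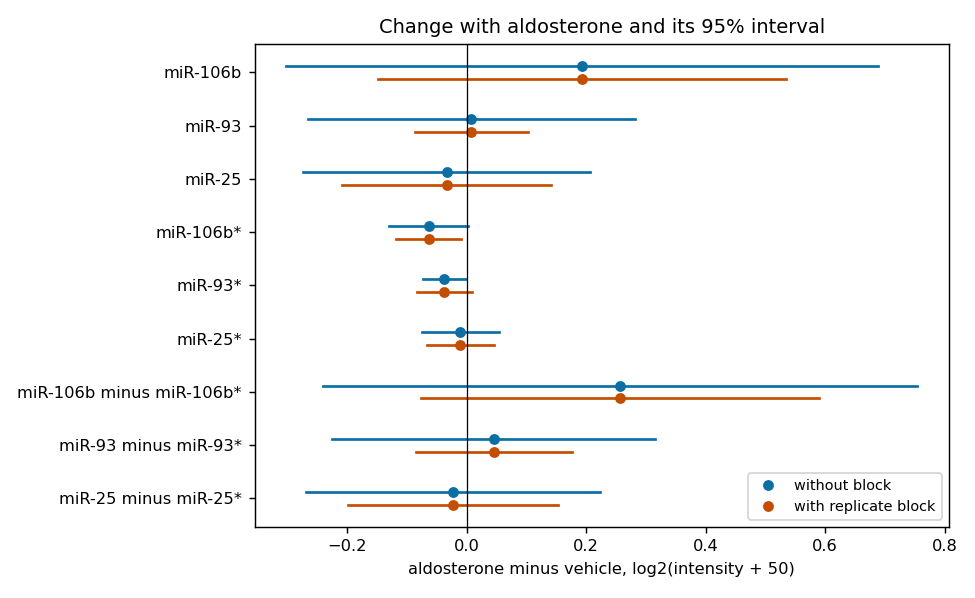
Aldosterone minus vehicle on the log2(intensity + 50) scale (x axis) for the 6 probes and the 3 strand differences, with 95% intervals from limma without a block and with the replicate block. Without a block the interval of miR-93* ends below 0, at -0.00085, and with it that of miR-106b* ends at -0.0097; the others span 0.

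The spread of the members over replicate numbers was described next. Before normalization the intensity of miR-106b above blank ranged 17.1-fold over the 10 arrays, from 46.0 in vehicle replicate 4 to 788 in aldosterone replicate 3. The range was 8.41-fold for miR-93, 7.98-fold for miR-25, 3.93-fold for miR-106b*, 4.08-fold for miR-93* and 7.12-fold for miR-25*. Both arrays of replicate 3 were the brightest for each of the 6 probes. The whole of aldosterone replicate 3 was bright, with a median of 60.3 above blank over the 244 probes detected on every array, against 12.9 to 37.1 on the others.

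After quantile normalization the guides no longer shared a highest replicate. miR-106b was highest in replicate 3 (mean of both arrays 282, against 139 to 192 in the others). miR-93 was highest in replicate 1 (282, against 191 to 245), as was miR-25 (240.3, against 173 to 201). A test over the 5 replicate numbers, with treatment in the model, called 10 of 430 probes (2.33%) and none of the 6. miR-93 came nearest (limma F 22.6, adjusted p = 0.0521), followed by miR-106b (F 4.64, adjusted p = 0.252) and miR-25 (F 3.97, adjusted p = 0.271). For the minor strands the adjusted p was 0.344 to 0.885. Without replicate 2 miR-93 passed (limma F 144, adjusted p = 0.00681), among 28 of the 430 probes called in that setting. Without normalization between arrays all members but miR-93* passed, among 222 probes called in all. What the shared title codes stand for is not given in the labels.

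**Figure D4:**
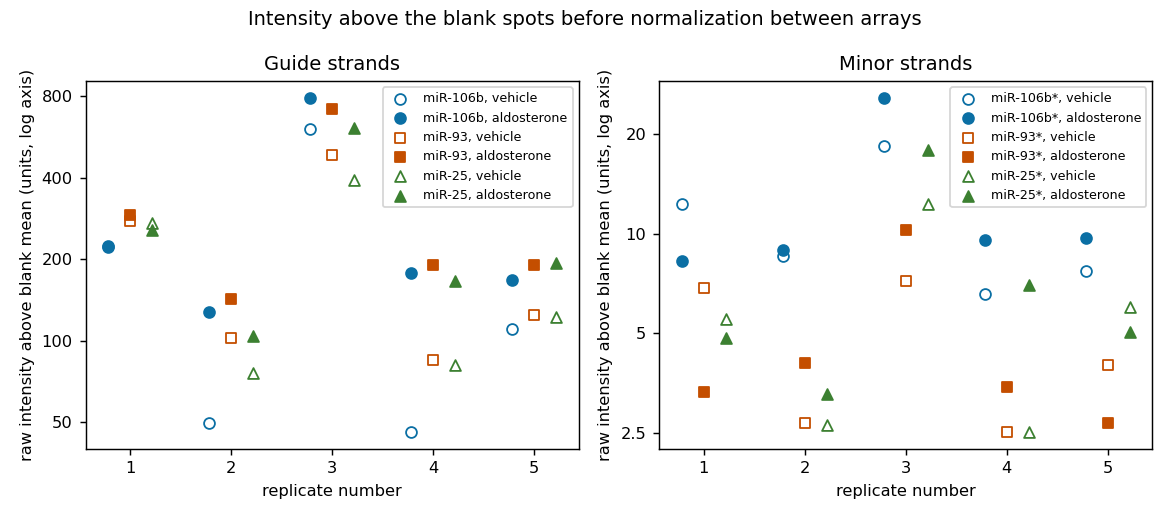
Raw intensity above the blank mean (y axis, log scale, mean of 2 spots) against replicate number for the guide strands and the minor strands, with open symbols for vehicle and filled symbols for aldosterone. Replicate 3 is the brightest for all 6 probes, at 391 to 788 for the guides and 7.21 to 25.8 for the minor strands.

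Likeness of pattern is given as Pearson's r of normalized log2 values over the 10 arrays, as a description with no test, since the arrays form 5 same-numbered pairs and were normalized together. Between the guides r was 0.78 for miR-93 and miR-25, 0.51 for miR-106b and miR-93 and 0.39 for miR-106b and miR-25. Each guide and its own minor strand had values near 0, at -0.22 for miR-106b, 0.098 for miR-93 and 0.042 for miR-25. miR-93* and miR-25* lay close to background on some arrays, while miR-106b* was 6.96 to 24.2 blank SDs above the blank mean. Over 10 arrays and with no test, these values do not show that both strands of a hairpin vary independently. Across hairpins r was 0.59 for miR-106b and miR-25* and 0.50 for miR-106b* and miR-93*. The other pairs of a guide with a minor strand or of minor strands lay between -0.25 and 0.20. The 3 probes outside the cluster most like miR-106b were miR-185 (0.90), miR-322 (0.89) and miR-152 (0.89). For miR-93 they were miR-20a* (0.86), miR-181b (0.83) and miR-181a-1* (0.81), and for miR-25 miR-181b (0.91), miR-100 (0.91) and miR-206 (0.87). The minor strand miR-106b* was most like miR-664 (0.88), miR-99b (0.81) and miR-484 (0.80). miR-93* was most like miR-3102-3p.2 (0.72), miR-3110 (0.65) and miR-3093-5p (0.64), and miR-25* most like miR-10b (0.80), miR-652 (0.76) and miR-3113* (0.72). For each member these are the 3 highest among the tested probes outside the cluster, over only 10 arrays.

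The guides have seed relatives, which can bind the same target sites, in the paralogous miR-17~92 cluster and the miR-106a cluster. Others, such as miR-92b, lie elsewhere. The sequences of those named below are shown with the shared seed in capitals.
miR-106a: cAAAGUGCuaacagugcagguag
miR-20a: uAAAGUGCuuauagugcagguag
miR-92a: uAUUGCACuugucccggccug
miR-92b: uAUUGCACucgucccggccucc
miR-93 differs from miR-17 and miR-20b by 3 edits and miR-106b from miR-17, miR-20a and miR-106a by 5, while miR-25 is 4 edits from miR-92a. How far such relatives bind each other's probes was not tested.

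RefSeq also gives the seed of miR-106b and miR-93 to miR-6383, for which no probe was found by name. The other 4 relatives with that seed (miR-17, miR-20a, miR-20b and miR-106a) were detected on all 10 arrays. With aldosterone 3 were higher and 1 was lower, and their median change was 0.12 (log2). The smallest unadjusted p among them belonged to miR-106a, at 121 ± 18.01 (SD, n = 5) with the hormone and 103 ± 15.7 without it, a log2 change of 0.16 (SE 0.088). Next came miR-20a, at 166 ± 24.5 and 150.5 ± 63.6, also with 0.16 (SE 0.20). Without vehicle replicate 2 the change of miR-20a was 0.0050, and without vehicle replicate 1 it was 0.31. Of the 5 relatives of miR-25, miR-92a and miR-92b were detected on all arrays, miR-32 on 1 and the other 2 on 0. miR-92a was at 42.4 ± 5.32 and 50.0 ± 8.86 (log2 change -0.11, SE 0.064) and miR-92b at 17.1 ± 2.07 and 18.1 ± 3.17 (-0.021, SE 0.034), both on the lower side as miR-25 was. In the paralog clusters as a whole 10 of 22 probes were detected on all arrays and 13 were tested, 9 of them higher and 4 of them lower, and their median change was 0.027 (log2). The 2 with the smallest unadjusted p there were miR-106a and miR-92a. Over all 430 tested probes 53% were higher and the median was 0.0025. That array median was 0.037 with blank subtraction and no offset, and it is not matched to the relatives in intensity. None of these relatives passed (limma adjusted p = 0.944 or above).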

How the data were processed

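Single-colour miRNA arrays of 10 samples were used. Per the deposited note, the authors digitized the raw intensity of 3136 spots per array, subtracted the blank mean, marked spots above the blank mean plus 2 SD, averaged duplicates and scaled each array's median to 25; the deposited value table equals that column (6454 values, largest difference 0). The scanner was not stated in the labels. Here the raw intensity was corrected by normexp (offset 50), averaged over spots on the log2 scale and quantile-normalized over miRNA probes (R 4.3.3, limma 3.58.1), leaving out 4 spots marked as poor. Intensities printed have the offset removed. Probes with both spots past the authors' threshold on at least 5 arrays were tested, 430 of 1040. Alternatives changed the background correction, normalization, filter, spots and arrays used.

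Same-numbered arrays deviated together from their group means (r = 0.20 to 0.81), so the shared title codes were taken to pair the samples. For replicate 5, r was 0.20, and its aldosterone array reached 0.27 with an array of another number. For aldosterone, the SEs, intervals and p-values printed without mention of the block leave the pairing out. The exact permutation over all splits does so too. A fit with the replicate block was the alternative. Named were all 6 members, the 2 relatives of each list with the smallest unadjusted p, and the 3 most alike probes of each member. The members and lists were chosen with earlier results of these data known. Functions were tested on simulated data.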

Additional observations from a re-analysis of the deposited data

Results flagged for a closer look

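A gap test for single arrays far from their group was run on 30 sets of 5 arrays, and 8 stood out. Chance gives about 1 in 20 for independent, normally distributed sets. These sets share arrays and probe values, so the count does not measure an excess over chance. After normalization, miR-106b in aldosterone replicate 3 (gap 0.86 of the range) and miR-106b* in vehicle replicate 2 (0.767) stood above their groups. The strand difference of miR-25 in vehicle replicate 1 did so too (0.726), at 2.43 against 1.92 to 2.06 on the log2 scale. Before normalization the intensity above blank of aldosterone replicate 3 stood out for miR-106b (0.858), miR-93 (0.74), miR-106b* (0.919), miR-93* (0.816) and miR-25* (0.744), on an array where the probes detected throughout were also bright (median 60.3 above blank).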

How the results depend on the processing

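In each of 15 alternatives beside leaving out arrays, 0 single probes passed for aldosterone, and none of the cluster's 6 probes and 3 strand differences did (limma). Among all 61 strand differences the smallest adjusted p was 0.0390, in the deposited values with the replicate block, and above the threshold in the others. The changes of miR-106b and miR-93* and the strand differences of miR-106b and miR-93 kept their sign in all of these that gave a value, over 0.091 to 0.75, -0.47 to -0.0010, 0.14 to 0.72 and 0.024 to 0.63. A smaller offset widened the changes of dim probes. Signs turned as follows. Without normalization between arrays the log2 change was 0.39 for miR-25, 0.032 for miR-106b*, 0.039 for miR-25*, 0.16 for miR-92a, 0.096 for miR-92b and 0.36 for the strand difference of miR-25. In the authors' deposited values, where 85.6% of tested probes were higher, these were 0.43, 0.068, 0.15, 0.23, 0.36 and 0.28, the same with the replicate block added. Under spike control scaling they were 0.24 for miR-25, 0.0088 for miR-25*, 0.063 for miR-92a, 0.043 for miR-92b and 0.23 for the strand difference of miR-25. Under 75th percentile scaling, where 14.2% of tested probes were higher, miR-93 was at -0.014 and the miR-25 strand difference at 0.012; blank subtraction without an offset put the latter at 0.037. Cyclic loess gave -0.0030 for miR-93 and 0.0055 for miR-92b, the dimmer spots -0.0040 for miR-93 and the brighter spots 0.00048 for miR-92b. The choice of spots and the alternatives joining the block to another change were added after seeing the data. Causes were not tested.

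Leaving out single arrays or pairs moved the log2 change over 0.041 to 0.35 for miR-106b, -0.074 to 0.073 for miR-93, -0.079 to 0.049 for miR-25, -0.082 to -0.042 for miR-106b*, -0.051 to -0.024 for miR-93* and -0.032 to 0.0048 for miR-25*. Strand differences moved over 0.12 to 0.41 for miR-106b, -0.042 to 0.10 for miR-93 and -0.082 to 0.067 for miR-25. None of these passed. With the replicate block the strand difference of miR-106b was 0.26 (limma adjusted p = 0.681), and unadjusted p under 0.05 numbered 19 against 8 over all probes.

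The test over replicate numbers called 222 probes without normalization, 49 under cyclic loess and 18 under 75th percentile scaling, and 2 to 28 without 1 replicate. Without normalization F was 22.5 for miR-106b, 44.1 for miR-93, 34.1 for miR-25, 9.06 for miR-106b* and 10.96 for miR-25*, all past the threshold, as was miR-106b under cyclic loess (14.3). Without 1 replicate F ranged over 1.28 to 13.1 for miR-106b, 9.95 to 144 for miR-93, 1.65 to 6.14 for miR-25, 1.41 to 4.59 for miR-106b*, 0.13 to 0.68 for miR-93* and 1.13 to 6.39 for miR-25*. miR-93* and miR-25* lay near the detection threshold on some arrays, so signal over background limits their precision.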
